A study of Mus musculus with 8 samples.

Results

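Stress granules are cytoplasmic bodies of mRNA and RNA-binding proteins that form when translation initiation stops, often after phosphorylation of the initiation factor eIF2. The G3BP proteins are their central scaffold, and RNA-binding proteins such as TIA1, CAPRIN1 and ataxin-2 join them. In oocytes many mRNAs are stored untranslated, and proteins of the same families take part in that storage.

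The 9 genes described here are G3bp1, G3bp2, Caprin1, Tia1, Tial1, Pabpc1, Atxn2, Ddx3x and Fmr1, read from 9 of the 34472 probe sets of the array. The set was chosen by the signal of G3bp1, which was higher in the treated arrays, and filled with known granule genes. Each gene was read from the only probe set whose annotation names that gene alone. The G3bp1 difference between the groups is therefore a description, with no test.

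The measurements come from 8 Affymetrix mouse gene arrays of total RNA from female ICR mice, 8 weeks old, whose feed held no phyto-oestrogens. The 4 control arrays are from mice without treatment. The 4 BPS arrays are from mice gavaged daily for 7 days with bisphenol S, an analogue of bisphenol A, at a daily dose of 0.1 ng for each g of body weight. BPS was carried in 50% glycerol with 0.1% DMSO, and no vehicle is named for the controls. The labels call the tissue oocytes while the protocols describe taking ovaries. Whether an array holds RNA of 1 animal or of a pool is not stated, so p-values measure only the spread between these samples.

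Signals are log2 values from robust multi-array averaging (RMA), and a difference is BPS minus control on that scale. A probe set counted as above background when its mean over the arrays exceeded 4.53, the 95th percentile of 1722 probe sets for Y-linked, olfactory receptor and vomeronasal receptor genes, and 29.7% of all probe sets did. All 16 oocyte markers were above background, with array means of 9.02 to 9.17 in control and 9.13 to 9.22 in BPS. Of 11 granulosa and cumulus cell markers only Inha and Nr5a2 were, while Amh, Fshr, Cyp19a1 and Foxl2 were not. The array means of these 11 were 4.36 to 4.46 in control and 4.44 to 4.64 in BPS, and their part in the differences given here was not tested. Theca and stroma had 1 of 9 measured markers above background, and blood and endothelium 1 of 6.

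Among the 9 genes, G3bp1 and Fmr1 had every BPS array above every control array, and in the other 7 the groups overlapped. G3bp1 was chosen for its difference, and of the 8 other genes 1, Fmr1, had no overlap. Over all probe sets, 4.13% had every BPS array higher and 1.68% every BPS array lower. Of the 10236 above background, 733 had every BPS array higher and 122 every BPS array lower. Of the 8 genes other than G3bp1, 0 passed an adjusted p of 0.05 in limma without a block, when 0.00870% of all probe sets did. Of those 8, only Fmr1 had an unadjusted p under 0.05, when 11.1% of all probe sets and 2061 of the 10236 above background did. In these bulk samples, fewer cells of a type and less RNA per cell cannot be told apart. The signals of Tia1 and Pabpc1 were not above background, and those of the other 7 genes were.

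**Figure D1:**
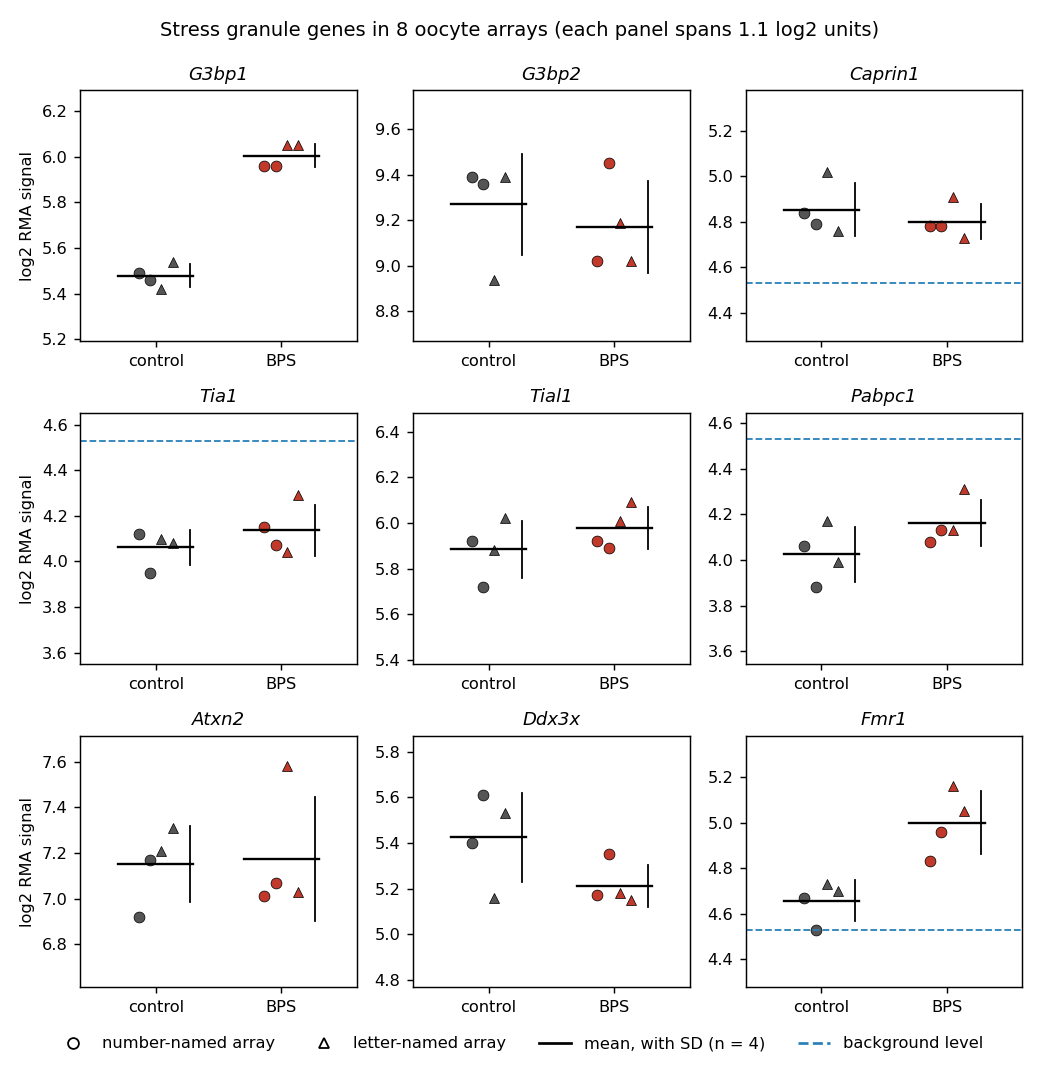
Log2 signal of the 9 genes in each control and BPS array; circles and triangles are arrays named with numbers and with letters, horizontal lines group means, vertical bars SD (n = 4) and dashed lines the background level, 4.53. G3bp1 lies at 5.42 to 5.54 in control and 5.96 to 6.05 in BPS, Fmr1 at 4.53 to 4.73 and 4.83 to 5.16, and the groups overlap in the other 7 genes.

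The promoters of G3bp1 and Fmr1 are shown because these are the genes whose groups did not overlap. Each window runs 5′ to 3′ on the plus strand, from 250 bases before a transcript start site into the first 50 bases of the transcript, and is from RefSeq on GRCm38.p6. The windows lie at chr11:55469502-55469801, with the site at 55469752, and at chrX:68678291-68678590, with the site at 68678541. Both sites lie downstream of the outer start of the gene given further on, and the Fmr1 window is the first of 2 that RefSeq lists. Capitals mark CCAAT, or ATTGG on the other strand, in G3bp1, and in Fmr1 GGTCA, the letters of 1 arm of an oestrogen response element. On either strand the G3bp1 window holds GGTCA 0 times and the Fmr1 window CCAAT 0 times. The Fmr1 window also holds GGGCGGG, left unmarked.
G3bp1: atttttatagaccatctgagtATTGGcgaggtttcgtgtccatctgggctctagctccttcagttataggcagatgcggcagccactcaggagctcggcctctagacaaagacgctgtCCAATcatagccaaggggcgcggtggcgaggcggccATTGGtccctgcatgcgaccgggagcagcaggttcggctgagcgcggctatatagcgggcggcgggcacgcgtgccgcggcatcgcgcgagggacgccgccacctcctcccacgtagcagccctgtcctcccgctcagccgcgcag
Fmr1: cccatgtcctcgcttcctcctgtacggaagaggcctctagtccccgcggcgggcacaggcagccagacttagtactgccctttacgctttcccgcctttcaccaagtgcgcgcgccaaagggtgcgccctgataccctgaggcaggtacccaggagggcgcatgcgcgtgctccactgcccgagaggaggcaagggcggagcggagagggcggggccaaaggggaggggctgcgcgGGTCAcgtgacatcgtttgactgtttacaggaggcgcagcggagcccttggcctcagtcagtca
The G3bp1 window holds the CCAAT letters 3 times, starting 229, 132 and 96 bases before its start site. It has 30 CpG and 64% G and C. The Fmr1 window holds GGTCA once, 14 bases before its start site, with 24 CpG and 65.7% G and C. Over all 32851 windows the medians were 7 CpG and 52.7% G and C, so both windows were richer in CpG than the median window.

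Letter matches were counted on both strands in the 8 member genes with a window, a gene counting when any of its windows held the letters, and over all 27025 genes with a window in the same way. CCAAT or ATTGG occurred in 2 of 8, G3bp1 and G3bp2, and in 41.1% of all genes. GGTCA or TGACC occurred in 5 of 8, Atxn2, Caprin1, Fmr1, G3bp2 and Tia1, and in 43.6% of all genes. The GC box letters CCCGCCC or GGGCGGG occurred in 5 of 8, Atxn2, Caprin1, Fmr1, G3bp2 and Tial1, and in 27.9% of all genes. These are matches of letters, not binding sites.

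G3bp1 (chr11:55469657-55500888) encodes the scaffold protein whose binding to RNA and to partner proteins starts granule assembly. Its control arrays read 5.49, 5.46, 5.42 and 5.54, and its BPS arrays 5.96, 5.96, 6.05 and 6.05. The lowest BPS array stood 0.42 above the highest control array. The means were 5.48 ± 0.05 (SD, n = 4) and 6.01 ± 0.05 (SD, n = 4), a difference of 0.53 or 1.44-fold. Both groups were narrow: the SD within groups was 0.05, at percentile 0.606 among probe sets above background. Leaving out 1 array at a time gave differences of 0.51 to 0.55. The gap, the SD and this range describe the values by which G3bp1 was chosen and test nothing. Quantile normalization of the deposited values gave 0.35.

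G3bp2 (chr5:92052145-92137725) encodes the paralogue of G3bp1, which can also form granules. Its control arrays read 9.39, 9.36, 8.94 and 9.39, and its BPS arrays 9.02, 9.45, 9.19 and 9.02. Control array 3 lay below all BPS arrays, BPS array 2 was the highest of the 8, and the groups overlapped. The difference was -0.10 ± 0.13 (SE), with a 95% interval of -0.41 to 0.21 and a limma adjusted p of 0.788, and it was -0.21 without control array 3. In the authors' deposited table the averages were 9.38 in control and 9.1 in BPS. The authors' averages matched a one-step Tukey biweight, which gives arrays far from the rest less weight, and with it the difference was -0.29.

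Caprin1 (chr2:103762945-103797669) encodes a protein that binds the G3BP scaffold and RNA. Its control arrays read 4.84, 4.79, 5.02 and 4.76, and its BPS arrays 4.78, 4.78, 4.91 and 4.73. Array 3 was the highest in both groups, and the groups overlapped. The difference was -0.05 ± 0.07 (SE; 95% interval -0.21 to 0.11, limma adjusted p = 0.787), and -0.15 after quantile normalization.

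Tia1 (chr6:86404203-86433405) and Tial1 (chr7:128439772-128461726) encode related RNA-binding proteins that repress translation and enter granules. Tia1 read 4.12, 3.95, 4.10 and 4.08 in control and 4.15, 4.07, 4.04 and 4.29 in BPS, all below the background level. Tial1 read 5.92, 5.72, 5.88 and 6.02 in control and 5.92, 5.89, 6.01 and 6.09 in BPS. All 4 BPS arrays of Tial1 lay above the control mean, and the groups overlapped. The Tial1 difference was 0.09 ± 0.08 (SE; 95% interval -0.08 to 0.27, limma adjusted p = 0.651), and -0.08 after quantile normalization.

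Pabpc1 (chr15:36595658-36609581) encodes the main cytoplasmic poly(A)-binding protein. It read 4.06, 3.88, 4.17 and 3.99 in control and 4.08, 4.13, 4.13 and 4.31 in BPS, all below the background level. Atxn2 (chr5:121711609-121814950) encodes ataxin-2, which binds the poly(A)-binding protein. Its control arrays read 6.92, 7.17, 7.21 and 7.31, and its BPS arrays 7.01, 7.07, 7.58 and 7.03. BPS array 3 was the highest of the 8, and the other 3 BPS arrays lay below the control mean. The Atxn2 difference was 0.02 ± 0.14 (SE; 95% interval -0.31 to 0.35, limma adjusted p = 0.968). It was -0.10 after quantile normalization, -0.12 without BPS array 3 and -0.06 without control array 1.

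Ddx3x (chrX:13280496-13293988) encodes a DEAD-box RNA helicase that acts in translation initiation. Its control arrays read 5.40, 5.61, 5.16 and 5.53, and its BPS arrays 5.17, 5.35, 5.18 and 5.15. All 4 BPS arrays lay below the control mean, but control array 3 lay among them. The difference was -0.21 ± 0.10 (SE; 95% interval -0.44 to 0.02, limma adjusted p = 0.468), and -0.35 after quantile normalization.

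Fmr1 (chrX:68678536-68717963) encodes FMRP, an RNA-binding protein that represses the translation of many mRNAs and is found in granules. Its control arrays read 4.67, 4.53, 4.73 and 4.70, and its BPS arrays 4.83, 4.96, 5.16 and 5.05. The control values lay near the background level, 4.53. The lowest BPS array stood 0.10 above the highest control array. The means were 4.66 ± 0.09 (SD, n = 4) and 5.00 ± 0.14 (SD, n = 4). The difference was 0.34 ± 0.08 (SE; 95% interval 0.16 to 0.53), or 1.27-fold, with a limma unadjusted p of 0.00246 and an adjusted p of 0.322, and it was 0.24 after quantile normalization. The authors' deposited table gives Fmr1 averages of 4.7 and 5.0, a p of 0.0083 and an FDR of 0.864, and of all its probe sets 0 had an FDR under 0.05, the lowest being 0.165.

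**Figure D2:**
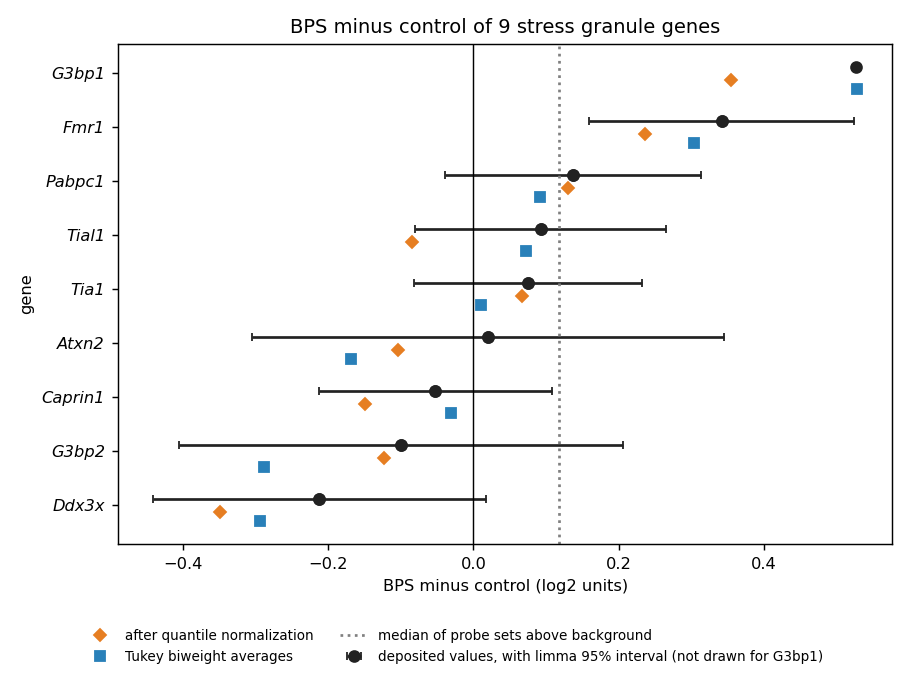
BPS minus control in log2 units for the 9 genes, from the deposited values with a limma 95% interval (none drawn for G3bp1), after quantile normalization and from Tukey biweight averages. The dotted line is the median of all probe sets above background, 0.12. G3bp1 and Fmr1 lie right of that line in all 3 calculations, and G3bp2, Caprin1 and Ddx3x lie left of 0 in all 3.

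Over the 8 genes other than G3bp1, 5 differences were positive and 3 negative, with a median of 0.05. Over all probe sets the median was 0.025, and over those above background, which Tia1 and Pabpc1 are not, it was 0.12. Quantile normalization gives all arrays the same distribution of signals. After it the medians of the 8 genes and of the probe sets above background were -0.09 and 0.00. The source of the shift toward BPS in the deposited values above background was not tested. Values after quantile normalization are given beside many of those that follow.

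In the authors' workbook 4 arrays are named with numbers and 4 with letters, and each group has 2 of each kind. What the naming marks is not stated. G3bp1 was higher in BPS by 0.49 among the number-named arrays and by 0.57 among the letter-named ones, and Fmr1 by 0.30 and 0.39. Both genes had every BPS array above every control array, so these differences could only be positive. For G3bp1 they also restate the difference by which it was chosen. Ddx3x was at -0.25 and -0.18, and G3bp2 at -0.14 and -0.06.

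With array naming as a block, Fmr1 passed in limma at 0.34 ± 0.06 (SE, adjusted p = 0.0273), when 3.47% of all probe sets did. Among the 10236 above background, 757 passed as higher and 158 as lower. The other 7 tested genes did not pass. The Fmr1 call held in 1 of 8 fits that each left out an array. Without BPS array 1 its adjusted p was 0.0392, and without any other array it reached up to 0.0843. With the replicate number as a block, when 1.99% of all probe sets passed, the adjusted p of Fmr1 was 0.0643. With array naming as a block after quantile normalization it was 0.12. For Ddx3x the adjusted p with array naming as a block was 0.287.

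The contrast between letter-named and number-named arrays, with group as a term, did not enter the choice of the genes. It passed in 0 of the 9 genes in limma, when 5.51% of all probe sets passed, and 1 of the 9, Fmr1, had an unadjusted p under 0.05, when 21.6% of all probe sets did. Fmr1 was 0.16 ± 0.06 (SE) higher in letter-named arrays (adjusted p = 0.156), and 0.03 higher after quantile normalization (adjusted p = 0.809). G3bp1 differed by 0.05 ± 0.05 (SE, adjusted p = 0.584), and by -0.17 after quantile normalization. Atxn2 differed by 0.24 ± 0.12 (SE, adjusted p = 0.292), and by 0.08 after quantile normalization. An interaction of group and naming passed in 0 of the 9 genes in limma, when 0.00% of all probe sets did, and 0 of 9 had an unadjusted p under 0.05, when 0.0609% of all probe sets did. That share is far below what a threshold of 0.05 gives without any interaction. The test called almost nothing in these data, so 0 of 9 does not show that the differences were equal in both namings.

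**Figure D3:**
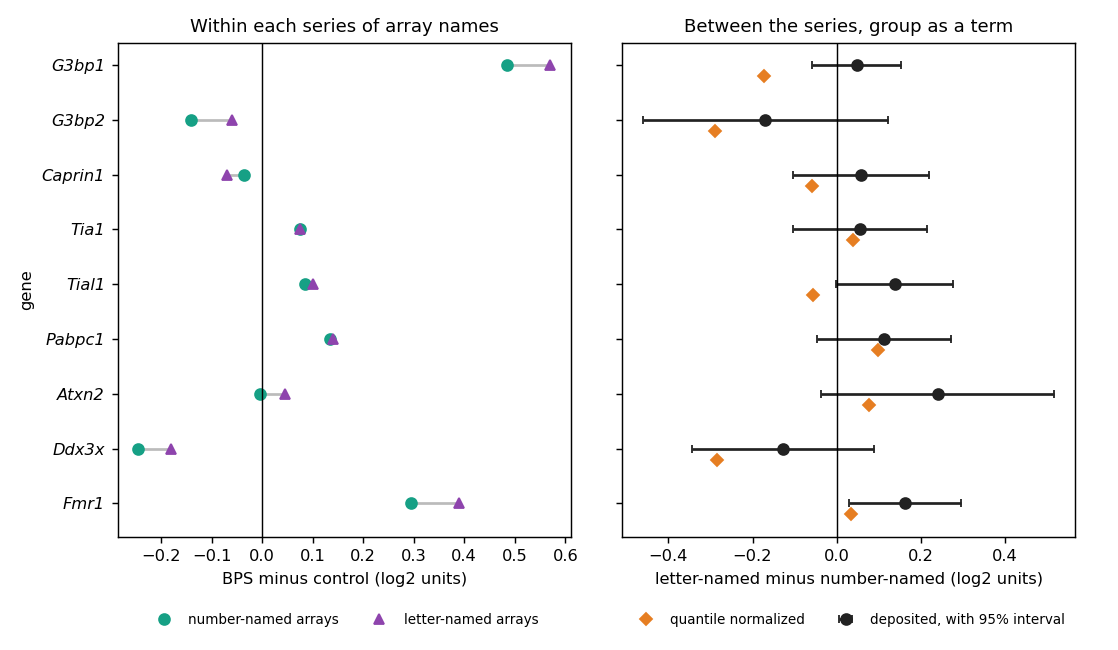
Left, BPS minus control in log2 units among the number-named arrays and among the letter-named arrays (2 against 2 each). Right, letter-named minus number-named arrays in log2 units with group as a term, with 95% intervals and after quantile normalization. G3bp1 and Fmr1 lie right of 0 in both namings on the left, which follows from their groups not overlapping.

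Genes that work with these 9 were read from 7 lists, chosen with earlier results of these data known, that hold 111 genes, 107 of them measured and 86 above background. Without a block 0 of them passed in limma, and 13 had an unadjusted p under 0.05, 11 higher and 2 lower in BPS. Over all probe sets 11.1% had such a p. Of the 10236 above background 2061 did, 1666 higher and 395 lower. The count was near the share over all probe sets and below that of the probe sets above background. The tilt toward higher was near that of the latter. Every BPS array lay above every control array in 3 of the 107 genes, and below in 1. Over all probe sets the shares were 4.13% and 1.68%, and of the 10236 above background the counts were 733 and 122. The median difference of the 107 list genes was 0.06 (-0.01 after quantile normalization). With array naming as a block 5 passed, 4 higher and 1 lower, when 3.47% of all probe sets did. Of the 10236 above background, 757 passed as higher and 158 as lower. After quantile normalization 0 of the list genes passed with that block.

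Eif2s2, a subunit of the initiation factor eIF2, read 5.07, 5.14, 5.31 and 5.33 in control and 5.44, 5.51, 5.80 and 6.02 in BPS. Its groups did not overlap. With array naming as a block its difference was 0.48 ± 0.07 (SE, limma adjusted p = 0.0189), with the replicate number as a block its adjusted p was 0.048, and without a block it was 0.371. After quantile normalization the difference was 0.30, and the adjusted p with these blocks was 0.0511 and 0.0848. Impact, a regulator of the eIF2 kinase GCN2, was named after its values were seen. It read 4.85, 4.80, 5.41 and 5.33 in control and 5.35, 5.28, 5.76 and 6.20 in BPS, and the groups overlapped. Its difference was 0.55 ± 0.09 (SE, adjusted p = 0.0288 with array naming as a block and 0.438 without a block).

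Larp1, an RNA-binding protein that regulates mRNAs of the translation machinery, was at 0.38 ± 0.07 (SE, limma adjusted p = 0.0373 with array naming as a block and 0.457 without a block), and 0.19 after quantile normalization. Zar1, which keeps maternal mRNA stored in oocytes, read 11.29, 11.45, 11.11 and 10.91 in control and 11.03, 10.94, 10.56 and 10.70 in BPS, with overlap. Its difference was -0.38 ± 0.07 (SE, adjusted p = 0.0299 and 0.408). Eif2s2, Impact, Larp1 and Zar1 also differed between the namings (adjusted p = 0.0425, 0.0159, 0.0187 and 0.0282), with Zar1 lower and the others higher in letter-named arrays. After quantile normalization these adjusted p were 0.305, 0.0625, 0.0918 and 0.05, none of them under the threshold. The calls with array naming as a block held in 5 of 8 fits that left out an array for Eif2s2, 2 for Impact, 1 for Larp1 and 0 for Zar1.

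Over all probe sets above background 7228 differences were positive and 2966 negative. Over all 34472 probe sets they were 20387 and 13733, with a median of 0.025. The lists hold genes above background and genes that are not, and are read against both. The scaffold and RNA-binding proteins had 18 positive and 9 negative differences with a median of 0.05, -0.03 after quantile normalization. The granule scaffold partners Usp10 and Ubap2l were at 0.06 ± 0.16 and 0.05 ± 0.29 (SE, limma adjusted p = 0.906 and 0.959), and at -0.02 and -0.01 after quantile normalization. The granule control enzymes had 10 positive and 1 negative with a median of 0.16, 0.10 after quantile normalization. Prmt5, an arginine methyltransferase, was at 0.38 ± 0.10 and the helicase Dhx36 at 0.28 ± 0.08 (SE, adjusted p = 0.369 and 0.383), and after quantile normalization at 0.23 and 0.11.

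The P-body and mRNA storage genes had 13 positive and 7 negative with a median of 0.07, -0.01 after quantile normalization. The P-body helicase Ddx6 was at 0.09 ± 0.17, and Eif4enif1, which binds eIF4E, at 0.17 ± 0.05 without overlap between groups (SE, limma adjusted p = 0.863 and 0.389), and after quantile normalization at -0.07 and 0.11. The poly(A)-binding proteins and their partners had 8 positive and 6 negative with a median of 0.03, -0.02 after quantile normalization. Pabpc1l, the oocyte poly(A)-binding protein, was at -0.04 ± 0.10 and Paip2, an inhibitor of poly(A)-binding protein, at 0.26 ± 0.12 (SE, adjusted p = 0.908 and 0.472), and after quantile normalization at -0.21 and 0.17. Pabpc4l, not above background, was at 0.14 ± 0.05 (SE, adjusted p = 0.414).

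The eIF2 and stress response genes had 16 positive and 5 negative with a median of 0.06, 0.01 after quantile normalization. The eIF2 kinase genes Eif2ak1 and Eif2ak3 were at 0.36 ± 0.13 and 0.10 ± 0.09 (SE, limma adjusted p = 0.408 and 0.698), and after quantile normalization at 0.24 and 0.06. Eif2ak3 was not above background. The cap-binding genes had 7 positive and 5 negative with a median of 0.02, -0.10 after quantile normalization. Eif4b, a cofactor of the helicase eIF4A, read 7.95, 8.07, 7.94 and 7.86 in control and 7.81, 7.80, 7.84 and 7.82 in BPS. Every BPS array of Eif4b lay below every control array, with a difference of -0.14 ± 0.05 (SE, adjusted p = 0.411), and -0.22 after quantile normalization. Eif4e1b, an oocyte form of eIF4E, was at 0.02 ± 0.11 and Eif4e2 at 0.20 ± 0.13 (SE, adjusted p = 0.95 and 0.578), and after quantile normalization at -0.15 and 0.13. The paralogues of the 9 genes had 7 positive and 4 negative with a median of 0.05, and among them Caprin2 was at 0.33 ± 0.19 (SE, adjusted p = 0.517), at 0.19 after quantile normalization and at 0.14 without control array 3.

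**Figure D4:**
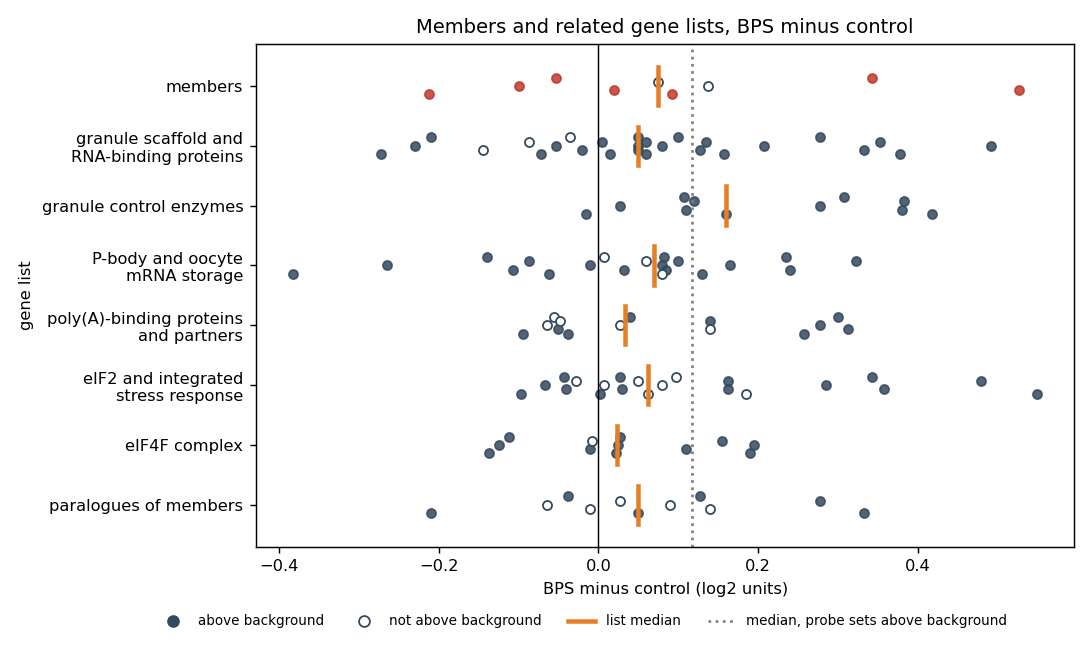
BPS minus control in log2 units for each gene of the 9 and of 7 related lists. Filled points (red for the 9 genes) are above background, open points are not, orange bars are list medians, and the dotted line is the median of all probe sets above background, 0.12. The medians of the 7 lists run from 0.02 to 0.16.

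The genes most like G3bp1 were ranked by Pearson r over the 8 arrays among 7469 probe sets above background that name 1 gene. Symbols such as those of predicted genes, RIKEN clones, microRNAs and small nucleolar RNAs were left out. The first 5 were Exoc1 (r = 0.986), Rptor (0.984), Tcte2 (0.973), Slc18a2 (0.972) and Fkbp8 (0.965), and 84 of the probe sets searched had r of 0.9 or above. The r includes the group difference for which G3bp1 was chosen, and all arrays share their processing. Exoc1, which encodes a subunit of the exocyst, read 5.82, 5.84, 5.70 and 5.88 in control and 6.33, 6.33, 6.58 and 6.60 in BPS. Rptor, which encodes the raptor subunit of the mTORC1 kinase complex, read 5.16, 5.14, 5.00 and 5.33 in control and 5.72, 5.64, 5.86 and 5.83 in BPS. The groups did not overlap in any of the 5 genes, which ranking by likeness to G3bp1 favours. Of the 10236 probe sets above background, 733 had every BPS array higher.

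**Figure D5:**
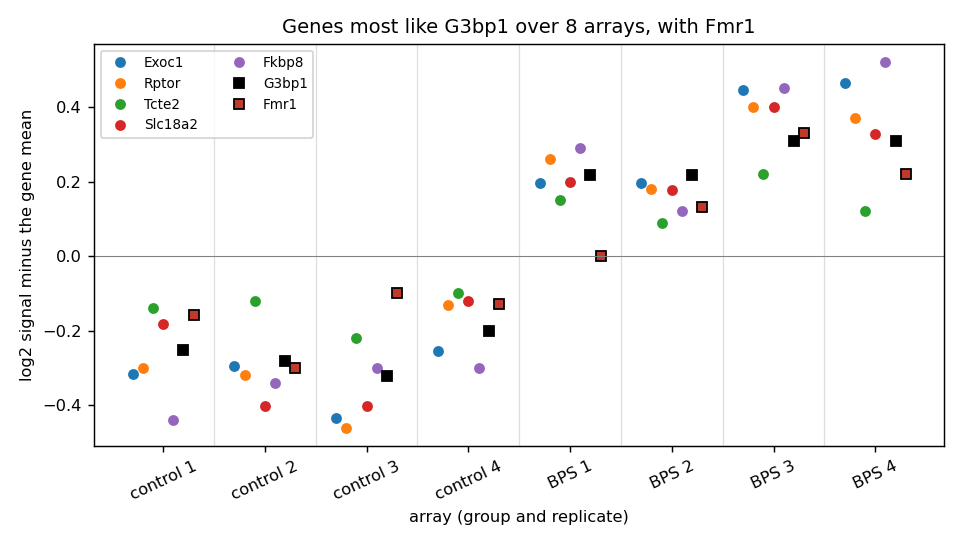
Log2 signal minus the gene's mean over the 8 arrays, for G3bp1, Fmr1 and the 5 genes most like G3bp1. In each of these 7 genes all 4 BPS arrays lie above all 4 control arrays. The 5 genes were picked by likeness to G3bp1 over these arrays, which favours this.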

How the data were processed

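Per the file headers, the authors made gene-level RMA signals with annotation release 36 on mm10. The submitters' processing notes list the Transcriptome Analysis Console. The deposited signals are log2 values with 2 decimals. The authors' deposited table adds group averages, SDs, p-values and FDR values, and a fold written as a signed score (control over treated, per the file headers). No source used here gives the authors' test. Their averages equalled a one-step Tukey biweight within 0.01 in 99.6% of probe sets, against 44.7% and 44.3% for arithmetic means.

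BPS minus control was fitted on all 34472 probe sets with limma 3.58.1 in R 4.3.3 (lmFit and eBayes, two-sided, Benjamini-Hochberg, threshold 0.05). The fit was also run on simulated data. The differences planted there were larger than those given here and no array naming was simulated, so that run does not cover differences of this size. Members and lists were chosen with earlier results of these data known. Named were the 9 members, from each list the 2 genes of lowest unadjusted p, Usp10, Ubap2l, Eif2ak3, Ddx6, Pabpc1l and Eif4e1b, and the 5 genes most like G3bp1. A gene that this rule picks is not reported here. Same-numbered control and BPS arrays deviated together (r = 0.519, 0.383, 0.173 and 0.362), which set the replicate number as a block in an alternative. No label gives the numbers a meaning. Arrays of other numbers but the same naming deviated together to a similar degree (r = 0.305 to 0.493). These r therefore do not single out the number from the naming. The number of arrays limits the precision. Other alternatives were normalization, filters on dim probe sets, an intensity trend and left-out arrays. Tables used Python 3.11.15 and pandas 2.3.3.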

Additional observations from a re-analysis of the deposited data

Results flagged for a closer look

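In 3 of 66 groups of 4 arrays, 1 array stood apart from the other arrays of its group by Dixon's gap test, where chance gives about 1 group in 20. G3bp2 read 8.94 in control replicate 3 and 9.36 to 9.39 in the other control arrays. Atxn2 read 7.58 in BPS replicate 3 and 7.01 to 7.07 in the other BPS arrays. Ddx3x read 5.35 in BPS replicate 2 and 5.15 to 5.18 in the other BPS arrays.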

How the results depend on the processing

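Of the 8 genes other than G3bp1, 0 passed without a block or with the replicate block, and 1 with array naming as a block (0 to 1 with an array also left out). Of the pathway genes 0 passed without a block, 1 with the replicate block (Eif2s2, adjusted p = 0.048) and 5 with array naming as a block. With an array also left out that last count was 0 to 4, namely 4 without control array 2 and 2 without control array 3 or BPS array 1, 3 or 4. The G3bp1 difference was 0.35 after quantile normalization, alone or with either block. Quantile normalization, alone or with either block, turned the sign of Tial1 (-0.085), Atxn2 (-0.10), Usp10 (-0.016), Ubap2l (-0.0075), Ddx6 (-0.071) and Eif4e1b (-0.15). Leaving out 1 array gave ranges across 0 for Caprin1 (-0.089 to 0.0033), Atxn2 (-0.12 to 0.074), Usp10 (-0.031 to 0.18), Ubap2l (-0.18 to 0.19), Ddx6 (-0.078 to 0.22), Pabpc1l (-0.12 to 0.051) and Eif4e1b (-0.07 to 0.11). Atxn2 was -0.17 with Tukey averages. Among number-named arrays Atxn2 was -0.005, Ubap2l -0.015 and Eif4e1b -0.015, and among letter-named arrays Pabpc1l was 0.08. The cause was not tested.

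The Tukey average and the left-out arrays under the naming block were chosen after seeing the data. Each member has 1 single-symbol probe set, so no other could be tried. Members above background numbered 7 at the 90th percentile level and 5 at the 99th. With 4 arrays a group, intervals of the members span 0 except for Fmr1 among the 8 tested.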
